A study of Drosophila melanogaster with 140 samples.

Results

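Glia and the remaining cells of the young Mettl3 RNAi brain were compared by RNA-seq of sorted cells. The comparison used 3 libraries of repoGFP+ cells and 3 libraries of repoGFP- cells, 6 of the 140 libraries of the series, and its members were chosen by their labels alone. All 6 libraries came from brains of 5d flies in which repo-Gal4 drove a membrane-bound GFP (UAS-mCD8-GFP) together with an RNAi construct against Mettl3, labelled by its older name ime4. Because repo-Gal4 is active in glia, the repoGFP- cells carried the same construct but were not the cells in which it was driven. The flies were males, the brains of several flies were pooled for each replicate, the tissue was dissociated with enzymes in the presence of actinomycin D, and dead cells were gated out by DAPI. About 500 cells were sorted for each library. The same sort was made from control brains, in which the RNAi construct targeted mCherry, and from both genotypes at 34d.

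Glia are the non-neuronal cells of the fly brain, and the transcription factor repo is expressed in nearly all of them outside the midline. Astrocyte-like and ensheathing glia occupy the neuropil, cortex glia wrap the neuronal cell bodies, and perineurial and subperineurial glia form the blood-brain barrier. Mettl3 is the catalytic subunit of the complex that writes N6-methyladenosine (m6A) on messenger RNA. The comparison asks which transcripts separate glia from the other brain cells when that enzyme is targeted in the glia.

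The 6 libraries held 10575300 to 15104286 reads counted on genes (median 11618004), and 9159 to 9436 genes had at least 5 counts. Levels below are CPM (counts divided by library size), scaled by library composition, and they are not divided by gene length, so levels of different genes are not compared. Genes of the mitochondrial genome, rRNA included, took 2.48 to 3.10% of the counts in repoGFP+ and 0.797 to 1.33% in repoGFP- libraries. Between replicates of a group the counts differed far more than counting noise alone allows, with a chi-square per gene of 41.1 to 50.3 among repoGFP+ and 19.4 to 38 among repoGFP- libraries, where 1 is the value for counting noise. The p-values measure the spread between these libraries, and intervals cover counting error only, since the reads carried no molecular identifiers. In such bulk samples fewer cells of a type and less RNA per cell cannot be told apart.

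The labels were checked first with repo (FBgn0011701, chromosome 3R, 18236192 to 18239602, dm6 coordinates). It was at 323, 340 and 344 CPM in the repoGFP+ libraries and at 2.83, 2.18 and 5.12 CPM in the repoGFP- libraries. The groups were far apart, 104-fold by the sums of scaled counts (log2 fold change 6.70 ± 0.32 SE, adjusted p = 1.09e-05, edgeR). Some repo exons overlap those of CG7156, and the library kit did not mark strand. The repoGFP+ label thus matched a high repo level in all 6 libraries.

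Neuronal transcripts were abundant in both fractions. The 12 neuronal markers summed to 10480.0 to 11840.0 CPM in repoGFP+ and 13770.0 to 15850.0 CPM in repoGFP- libraries, so that repoGFP+ libraries held 73.4% of the repoGFP- sum. nSyb, which encodes the vesicle SNARE of neuronal synapses, was at 1532, 1613 and 1584 CPM in repoGFP+ and 2206, 2348 and 2300 CPM in repoGFP- cells (log2 fold change -0.49 ± 0.06 SE, adjusted p = 7.58e-04). elav, an RNA-binding protein of neurons, was at 118, 146 and 121 CPM against 162, 164 and 168 CPM, and the difference did not pass the test (log2 fold change -0.32, adjusted p = 0.118). The 6 general glial markers summed to 718.6 to 915.5 CPM in repoGFP- and 20650.0 to 24160.0 CPM in repoGFP+ libraries, a sum made up mostly of nrv2 and Gs2 in repoGFP+ cells and of Eaat1 in repoGFP- cells (mean 647 CPM). Marker sums of the glial classes were uneven. The repoGFP- libraries held 51.4% of the repoGFP+ sum of ensheathing markers, 10.9% of that of astrocyte-like markers and 0.159% of that of cortex glial markers. In repoGFP- libraries the ensheathing sum came from Eaat2 and drpr (16165 and 11232 counts, beside 34 of axo). The astrocyte-like sum came mostly from Eaat1 (25311 counts, beside 108 of alrm and 120 of Gat). These shares thus follow single genes and do not measure glial classes in the repoGFP- cells. The part of the neuronal RNA of repoGFP+ libraries in each result below was not tested.

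**Figure D1:**
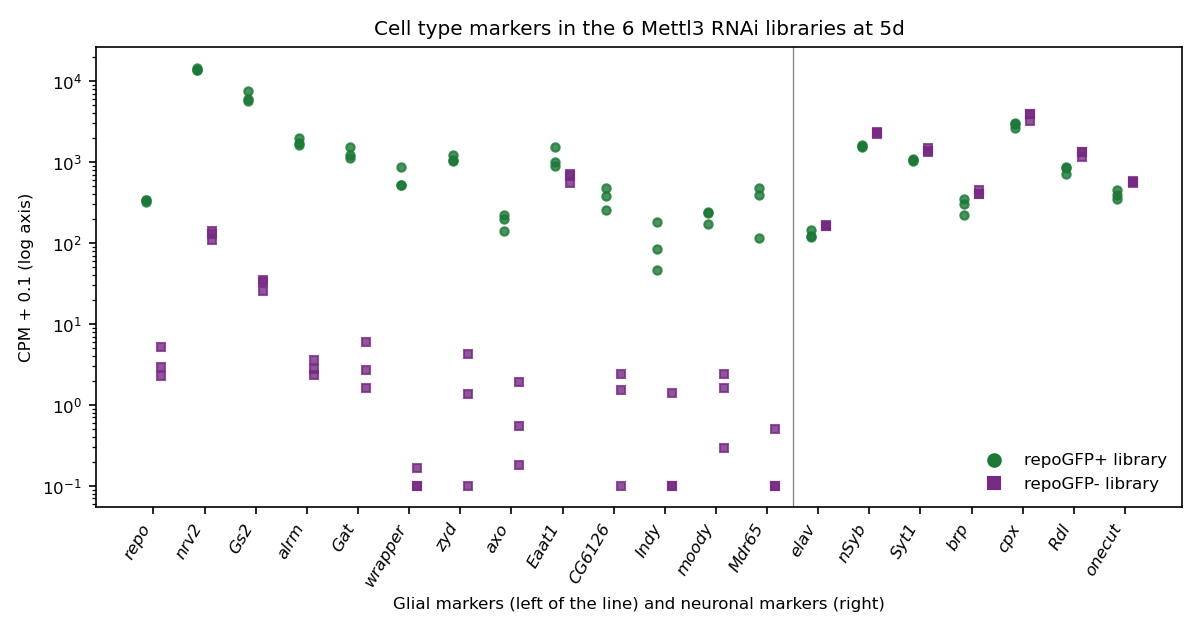
Levels of 13 glial and 7 neuronal marker genes, in CPM plus 0.1 on a log axis, in each of the 3 repoGFP+ (green circles) and 3 repoGFP- libraries (purple squares) of Mettl3 RNAi brains at 5d. The glial markers plotted, other than Eaat1, were separated by a wide gap (drpr, Eaat2 and Lac, with smaller differences, are not plotted) (repo, 323 to 344 against 2.18 to 5.12 CPM), while neuronal markers lay close together (nSyb, 1532 to 1613 against 2206 to 2348 CPM).

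Of 9014 genes tested, 1436 were higher in repoGFP+ cells (15.9%) and 637 were lower (7.07%) at an adjusted p under 0.05. Counts of called genes in the lists below stand beside these shares. The higher genes differed much more than the lower ones. A difference of at least 2-fold was fitted for 1135 of the higher genes (79.0%) and 134 of the lower genes (21.0%), and one of at least 8-fold for 747 and 37. The libraries of the groups did not overlap for 22.4% of all genes in the higher and 19.4% in the lower direction. Of the higher genes, 132 had no count in any repoGFP- library and 103 had 1 to 3 counts there, and the median among the other 1201 was 4.96-fold. The median of the lower genes was 1.62-fold. The higher genes took 33.6 to 37.0% of the CPM in repoGFP+ libraries and 11.3 to 11.7% in repoGFP- libraries, and the lower genes took 15.7 to 17% and 28.4 to 28.5%. The median exon length was 1973 bases for the higher genes, 3639 for the lower genes and 2124 for all genes tested. The count of lower genes depended on single libraries: it was 357, 289 and 290 without repoGFP- replicate 1, 2 or 3, against 1238, 1170 and 1180 higher genes.

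**Figure D2:**
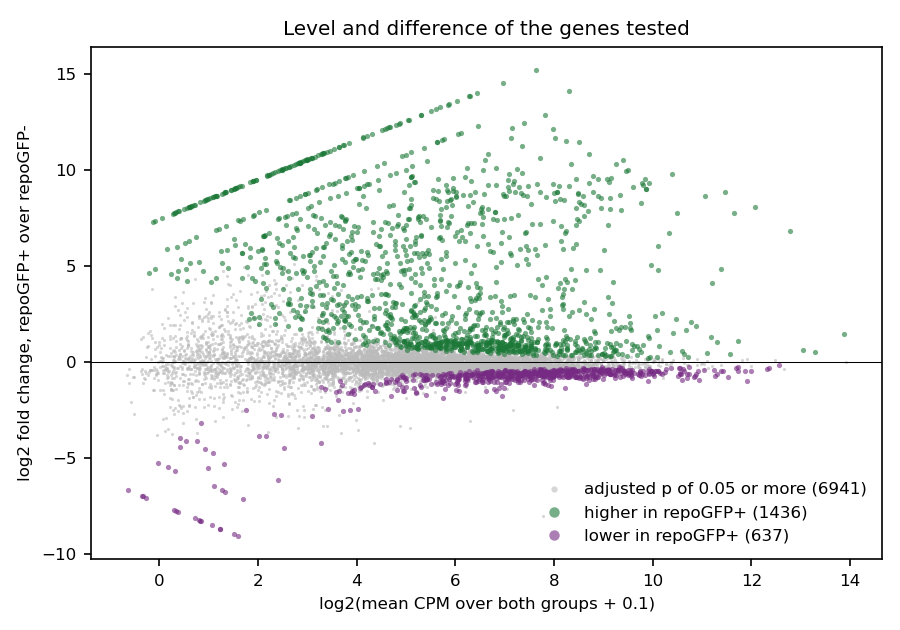
Fitted log2 fold change of repoGFP+ over repoGFP- cells (vertical axis) against the log2 of the mean CPM over both groups plus 0.1 (horizontal axis) for the 9014 genes tested in Mettl3 RNAi brains at 5d. The 1436 higher genes (green) spread up to 15.18, most of the 637 lower genes (purple) sit just below 0, and the slanted line of green points holds genes with no count in repoGFP- libraries, whose fitted value is no bound.

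Markers of every glial class were higher in the repoGFP+ cells. Of the 6 general glial markers all 6 were higher, with a median log2 fold change of 5.06 beside 0.01 for all genes tested. nrv2, a beta subunit of the sodium pump (FBgn0015777, chromosome 2L, 6789770 to 6798862), was at 13840.0, 13650.0 and 14520.0 CPM against 129, 142 and 109 CPM. Gs2, a glutamine synthetase (FBgn0001145, chromosome X, 11422832 to 11430197), was at 6070.0, 5624 and 7553 CPM against 32.7, 25.1 and 35.1 CPM. Both were over 100-fold apart with no overlap, at 109-fold for nrv2 and 209-fold for Gs2. loco, a regulator of G protein signaling, and pnt, an ETS transcription factor, were also higher, by log2 fold changes of 3.41 ± 0.28 and 2.98 ± 0.48 (SE).

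All 5 astrocyte-like markers were higher. alrm, a leucine-rich repeat protein of astrocyte-like glia (FBgn0039332, chromosome 3R, 25381065 to 25382781), was at 1694, 1616 and 1957 CPM against 2.27, 2.7 and 3.50 CPM, 624-fold by summed counts. Gat, a GABA transporter, was at 1131, 1206 and 1542 CPM against 2.59, 1.52 and 5.83 CPM. e, the enzyme that conjugates beta-alanine to biogenic amines, was at 1272, 741 and 1217 CPM against 3.24, 1.19 and 0 CPM. Each of these separated the fractions in all 6 libraries. The glutamate transporter Eaat1 behaved differently, at 1011, 897 and 1540 CPM against 666, 720 and 554 CPM (log2 fold change 0.88 ± 0.21 SE, adjusted p = 0.0221). The call for Eaat1 was lost without repoGFP- replicate 1 (adjusted p = 0.0624) or 3 (0.0793).

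The 3 ensheathing markers were higher by unlike amounts. axo was at 197, 219 and 140.5 CPM against 0.081, 1.85 and 0.449 CPM, a wide separation. The engulfment receptor drpr was at 376, 410 and 407 CPM against 312, 290 and 267 CPM, a difference of 1.37-fold that passed the test (adjusted p = 0.00792). Eaat2 was at 678, 581 and 1138 CPM against 418, 403 and 440 CPM, and its call (adjusted p = 0.0246) was lost without any 1 repoGFP- replicate (adjusted p = 0.0665 to 0.0808).

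The 3 cortex glial markers summed to 2320.0 to 2878 CPM in repoGFP+ and 1.85 to 7.86 CPM in repoGFP- libraries. wrapper, an immunoglobulin-domain protein of cortex glia, was at 866, 515 and 518 CPM against 0, 0.066 and 0 CPM. A single read of wrapper was counted in the repoGFP- cells, which gives a ratio of 24080.0 with a 95% exact counting interval of 4322 to 951100.0. zyd, a potassium-dependent sodium and calcium exchanger, was at 1068, 1041 and 1208 CPM against 4.13, 0 and 1.26 CPM. Cyp4g15, a cytochrome P450, was at 943, 765 and 1143 CPM against 3.73, 1.78 and 1.89 CPM.

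Most markers of barrier glia were also higher. The trehalose transporter Tret1-1 was at 926, 481 and 1408 CPM in repoGFP+ cells against 33.8, 36.5 and 37.0 CPM, and the citrate transporter Indy was at 83.8, 46.9 and 181 CPM against 1.30, 0 and 0 CPM. Replicate 2 was the lowest of the repoGFP+ libraries for all 4 perineurial markers, which summed to 1658, 991.5 and 2484 CPM. Of the subperineurial markers, the G protein-coupled receptor moody was at 170, 243 and 235 CPM against 1.54, 0.198 and 2.33 CPM. Mdr65, an efflux pump of the barrier (FBgn0004513, chromosome 3L, 6240500 to 6245746), was at 390, 114 and 480 CPM against 0.405, 0 and 0 CPM. Gli, a septate junction protein, was at 16.2, 2.46 and 2.67 CPM against 0.324, 0.066 and 0.808 CPM, and its call (adjusted p = 0.0439) was lost without repoGFP+ replicate 1 (0.186) or without any 1 repoGFP- replicate (0.0662 to 0.138). Lac, which septate junctions also need, was at 35.7, 10.5 and 26.1 CPM against 33.5, 55.1 and 40.4 CPM and did not pass. Over the 21 septate junction genes tested, 5 were higher (23.8%, beside 15.9% of all genes), none was lower and 16 did not pass. Their median log2 fold change was 0.19, and 3 were higher without repoGFP- replicate 1.

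Ion transport divided by gene rather than by class. Among 17 transporters and carbon-supply genes 10 were higher (58.8%, beside 15.9% of all genes) and 3 were lower (17.6%, beside 7.07%). Treh, which splits trehalose, had a mean of 2115 CPM in repoGFP+ against 78.1 CPM in repoGFP- cells. The sodium-potassium-chloride cotransporter Ncc69 was at 261, 175 and 294 CPM against 3.97, 2.44 and 0.269 CPM. The potassium-chloride cotransporter kcc was lower (log2 fold change -0.56, mean 897 against 1368 CPM), as was the glucose transporter Glut1 (log2 fold change -0.74). out, of the monocarboxylate transporter family, had no count in any repoGFP+ library and 3.73, 7.32 and 2.51 CPM in the repoGFP- libraries, which makes it at least 48.6-fold lower, counting 3 reads over the group as the floor, and the call was lost without repoGFP- replicate 2 (adjusted p = 0.0518). Atpalpha, the catalytic subunit of the sodium pump, was higher by 0.54 ± 0.06 (log2, SE), a small difference beside that of its partner nrv2.

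Among voltage-gated and leak ion channels, lower genes stood out from the share of all genes and higher ones did not. Of 21 such genes 3 were higher (14.3%, beside 15.9% of all genes) and 11 were lower (52.4%, beside 7.07%). The lower genes fell to 5 without repoGFP- replicate 2 and 6 without replicate 3. The 3 higher genes were channels that conduct near rest. The inward rectifier Irk2 was at 496, 464 and 701 CPM against 3.48, 1.25 and 0 CPM. Irk3, another inward rectifier, was at 253, 259 and 298 CPM against 3.08, 0.791 and 5.57 CPM, with some exons shared with Grip71. The leak channel Ork1 was at 215, 234 and 394 CPM against 0, 0.066 and 0.179 CPM. The lower members included the voltage-gated potassium channel Sh, at a mean of 585 against 928 CPM, and the calcium-activated channel SK, at 225 against 377 CPM.

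Genes that recycle transmitters were higher. Of 6 members tested for monoamines and histamine, 4 were higher and 2 did not pass. b, a decarboxylase that makes beta-alanine, was at 623, 467 and 418 CPM against 2.43, 0 and 0.179 CPM. The transporter w was at 600, 614 and 840 CPM against 15, 7.39 and 7.54 CPM. Balat, a beta-alanine transporter, was at 160, 119 and 119 CPM against 0, 0 and 0.0897 CPM, but it shares exons with asRNA:CR43469, and with the strand setting of the counting unknown its value is uncertain.

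Carbohydrate and energy metabolism differed by pathway. Of 19 glycolysis and glycogen genes 15 were higher, none was lower and 4 did not pass, with a median log2 fold change of 1.10. Gapdh1, of the glycolytic trunk, was at 1738, 1553 and 1663 CPM against 519.8, 541 and 527 CPM (log2 fold change 1.69 ± 0.07 SE). The hexokinase Hex-A was at 839, 782 and 921 CPM against 306, 255 and 304 CPM. AGBE, the glycogen branching enzyme, was at 186, 160 and 155 CPM against 45.2, 55.0 and 68.8 CPM. All 3 differences passed the test. Pfk, the phosphofructokinase, was at 694, 580 and 647 CPM against 534, 526 and 557 CPM and did not pass (adjusted p = 0.0628).

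The tricarboxylic acid cycle list, which also holds malic enzyme, had 7 of 19 members higher, 1 lower and 11 that did not pass, with a median of 0.16. The malate dehydrogenase Mdh1 was at 1046, 794 and 978 CPM against 171, 159 and 182 CPM. The isocitrate dehydrogenase Idh was at 268, 235 and 343 CPM against 87.1, 93.8 and 73.7 CPM. The malic enzyme Men-b was at 1388, 1445 and 1378 CPM against 852, 756 and 857 CPM. The lower one was kdn, the citrate synthase (log2 fold change -0.48). The list members SdhA and Nc73EF were under the threshold in 0 of 13 alternatives each. The calls of the list thus do not show a rise of the cycle as a whole. Of 64 nuclear-encoded subunits of oxidative phosphorylation 10 were higher (15.6%, beside 15.9% of all genes) and 54 did not pass, with a median of 0.20, and the 10 became 0 without repoGFP- replicate 2, 1 without replicate 1 and 2 without replicate 3, and 4 and 5 without repoGFP+ replicates 1 and 3. The messengers of the mitochondrial genome were higher in 12 of 13 cases, with a median of 1.79. Thus mt:CoI, a subunit of cytochrome oxidase, was at 2470, 3202 and 3039 CPM against 487, 990 and 1020 CPM.

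Detoxification genes were among the most uneven. Of 24 glutathione S-transferases tested, 15 were higher and none was lower, with a median log2 fold change of 5.00. GstD1 had a mean of 1009 CPM against 18.6 CPM. GstE6 was at 105, 74.8 and 91.0 CPM against no count, at least 1146-fold higher. GstE1 was at 595, 603 and 389 CPM against 0.486, 2.57 and 0.179 CPM, with exons shared with GstE10. These genes form clusters of similar copies, and how reads were divided among copies is not given in the sources used here. Of 14 antioxidant genes 8 were higher. The extracellular superoxide dismutase Sod3 was at 543, 451 and 647 CPM against 0, 0.660 and 2.42 CPM. cnc, the fly counterpart of NRF2, was at 108, 128 and 165 CPM against 28.3, 14.2 and 18.8 CPM, with exons shared with CG46310 and Irk1. Gclc, which carries out the first step of glutathione synthesis, was at 263, 352 and 346 CPM against 140, 138 and 148 CPM.

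Of 5 metal-binding genes tested 3 were higher, none was lower and 2 did not pass. The iron carrier Tsf1 (FBgn0022355, chromosome X, 18387084 to 18390344) was at 6327, 5075 and 5545 CPM against 12.2, 8.11 and 17.4 CPM. The metallothionein MtnA (FBgn0002868, chromosome 3R, 9783407 to 9784370) was at 567, 492 and 527 CPM against 1.78, 1.05 and 0.718 CPM. Fer1HCH, the ferritin heavy chain, was at 1004, 999 and 961 CPM against 896, 937 and 944 CPM and did not pass.

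Several genes of lipid storage and transport were higher. The lipid droplet protein Lsd-2 was at 282, 450 and 388 CPM against 2.59, 3.63 and 1.62 CPM. mdy, which makes triglyceride, was at 46.3, 54.3 and 36.8 CPM against no count, at least 598-fold higher. GLaz, a lipocalin of glia, was at 80.8, 63.3 and 89.5 CPM against 0.486, 0.462 and 1.71 CPM. The lipophorin gene apolpp, which was also on the fat body list, was at 428, 279 and 300 CPM against 10.2, 8.11 and 7.27 CPM, while no other fat body gene had a mean over 2.25 CPM in either group.

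Of 8 circadian clock genes 4 were higher, none was lower and 4 did not pass, with a median log2 fold change of 1.2. tim was at 258, 151 and 167 CPM against 59.0, 43.1 and 36.4 CPM, and the blue-light receptor gene cry was at 98.8, 110 and 119 CPM against 6.97, 5.08 and 8.80 CPM. Clk, the activator of the loop, was at 7.51, 29.3 and 43.6 CPM against 4.37, 2.64 and 1.62 CPM, and its call (adjusted p = 0.0144) was lost without repoGFP- replicate 2 (0.0607) or 3 (0.0565). per, the partner of tim, was at 41.2, 86.3 and 57.5 CPM against 115, 102 and 124 CPM and did not pass (log2 fold change -0.84, adjusted p = 0.0602). It passed in 4 of 13 alternatives, among them RUVr (0.00938), DESeq2 (0.0134) and without repoGFP+ replicate 2 (0.0107). The time of day of dissection was not used here.

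Genes of engulfment and of the glial response to injury were higher in 7 of 16 cases (43.8%, beside 15.9% of all genes). None was lower, beside 7.07% of all genes. mbc, which acts downstream of drpr in engulfment, was at 194, 115 and 174 CPM against 8.10, 20.9 and 14.8 CPM. The matrix metalloprotease Mmp1 was at 33.9, 52.9 and 58.6 CPM against 8.42, 6.73 and 2.69 CPM, with some exons shared with Pof. Dif, an NF-kappaB factor, was at 58.0, 46.0 and 54.1 CPM against 15.7, 13.3 and 16.8 CPM. The JNK phosphatase puc was at 92.7, 55.2 and 75.1 CPM against 71.4, 45.6 and 60.3 CPM (adjusted p = 0.369), so the groups overlapped. dl was at 13.1, 4.24 and 1.07 CPM against 5.35, 7.19 and 1.4 CPM (adjusted p = 0.812). Of the 15 antimicrobial peptide genes in the table only AttA passed the filter on low counts, and it did not pass the test.

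**Figure D3:**
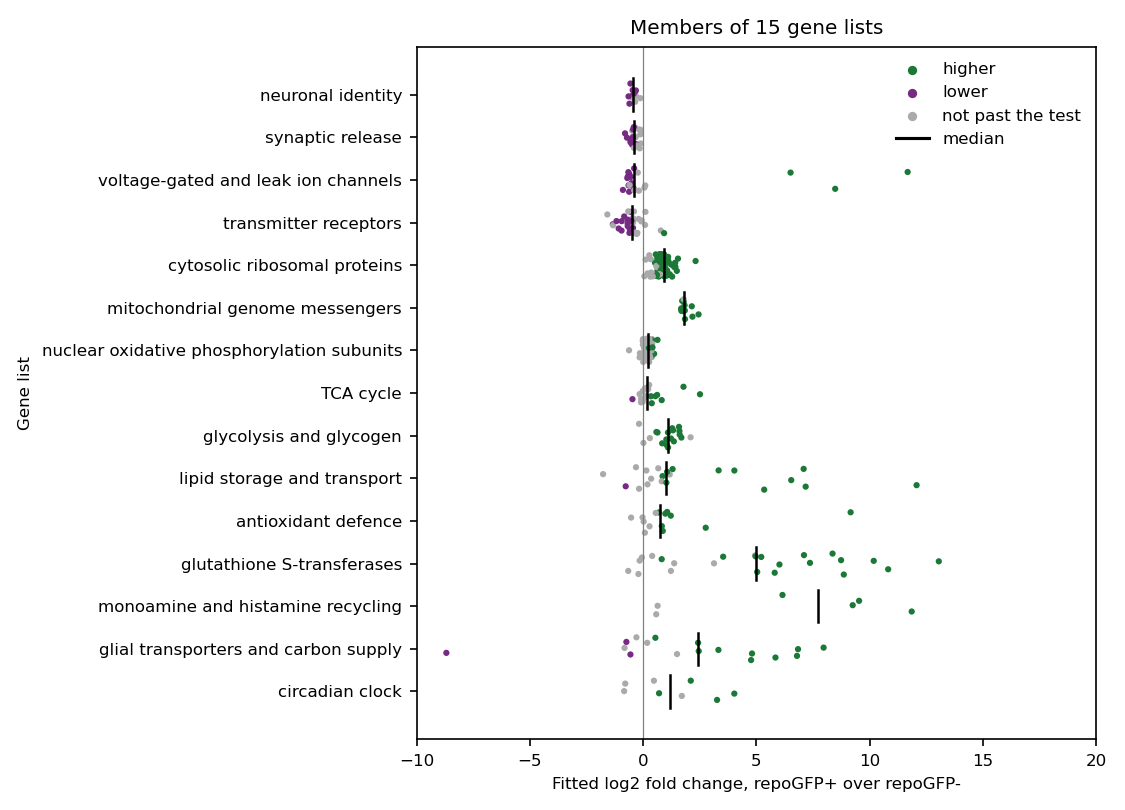
Fitted log2 fold change of repoGFP+ over repoGFP- cells for every member tested of 15 gene lists in Mettl3 RNAi brains at 5d, with higher genes in green, lower genes in purple, genes that did not pass in grey and the median of each list as a bar. The median was 5.00 for glutathione S-transferases and 1.10 for glycolysis, beside -0.41 for synaptic release, whose 25 members were all below 0.

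Genes of synapses were lower by small factors. Of the 12 neuronal markers 8 were lower (5 without repoGFP- replicate 2 or 3), and all 12 had a negative log2 fold change, with a median of -0.44. Of 25 genes of transmitter release 13 were lower (8 without repoGFP- replicate 3), with a median of -0.41. comt, the NSF ATPase that takes SNARE complexes apart, was at 808, 769 and 739 CPM against 1318, 1276 and 1332 CPM. The scaffold Dap160 was at 285, 304 and 204 CPM against 466, 458 and 499 CPM. Cadps, which primes dense-core vesicles, was at 460, 468 and 458 CPM against 694, 719.5 and 698 CPM. These differences were all smaller than 2-fold.

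Transmitter receptors were lower in 14 of 32 cases (9 without repoGFP- replicate 2) and higher in 1, with a median of -0.50. Nmdar1, a subunit of the NMDA receptor, was at 57.9, 82.7 and 69.4 CPM against 143, 190 and 215 CPM (log2 fold change -1.34 ± 0.20 SE, adjusted p = 0.00286). The dopamine receptor Dop2R was at 47.2, 33.2 and 39.7 CPM against 91.4, 96.5 and 92.6 CPM. Another dopamine receptor, Dop1R1, was the higher one, at a mean of 296 against 161 CPM. Among 13 genes of fast transmitters and monoamines 3 were lower, of which 0, 1 and 1 were called without repoGFP- replicate 1, 2 or 3. One of them, the GABA-synthesizing enzyme Gad1, had 4039, 4877 and 4092 CPM against 5963, 5925 and 5552 CPM (adjusted p = 0.0108, and 0.0619 and 0.063 without repoGFP- replicate 1 or 2). Vmat, the vesicular monoamine transporter, varied by library rather than by fraction, at 944, 247 and 489 CPM against 2.02, 970.5 and 313 CPM.

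Neuropeptides and neuronal transcription factors were variable. Of 23 neuropeptide genes tested 1 was higher, 3 were lower and 19 did not pass. The higher one, ITP, was at 26.1, 23.1 and 72.3 CPM against 2.11, 2.77 and 1.35 CPM, with exons shared with CG4622. spab was at 157, 113 and 146 CPM against 262, 397 and 277 CPM, a lower level that passed without each library in turn. Of 19 neuronal transcription factors 2 were higher (10.5%, beside 15.9% of all genes) and 6 were lower (31.6%, beside 7.07%). Without single libraries these counts ranged from 0 to 2 and from 3 to 6. dac, a nuclear factor of mushroom body neurons among others (FBgn0005677, chromosome 2L, 16466512 to 16485998), was at 20.5, 25.4 and 22 CPM against 70.6, 83.4 and 99.0 CPM (log2 fold change -1.86 ± 0.20 SE, adjusted p = 5.2e-04).

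The 12 genes with the greatest fitted rise over at least 10 CPM were mainly genes without a single count in repoGFP- cells. CG4991 (FBgn0030817, chromosome X, 17091854 to 17104562) was at 472, 207 and 507 CPM, at least 4897-fold higher, with exons shared with CG16700. Cyp6a17, a cytochrome P450, was at 172, 117 and 177 CPM, at least 1964-fold higher. The nuclease DNaseII was at 118, 107 and 118 CPM, at least 1468-fold higher, and Ugt35C1, a UDP-glycosyltransferase, was at 145, 99.7 and 105 CPM, at least 1483-fold higher. CG14688, CG9220, CG7135, CG32195, CG11275, GstE6 and asRNA:CR43469 were likewise at 0 in all 3 repoGFP- libraries, with bounds of 1146 to 3208, and wrapper was the twelfth.

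The 12 genes with the greatest fall were lower in level. TTLL3A, a tubulin glycylase (FBgn0031854, chromosome 2L, 6736364 to 6740188), was at 0.215, 0.170 and 0 CPM against 11.7, 15.4 and 3.86 CPM (log2 fold change -6.16 ± 1.02 SE, adjusted p = 0.00437). The pyrokinin receptor PK2-R2 was at 0, 0.509 and 0.853 CPM against 13.9, 6.40 and 12.1 CPM, and its call was lost without repoGFP- replicate 1 (adjusted p = 0.0732) or 3 (0.0678). mus101, the fly counterpart of TopBP1, was at 7.19, 1.78 and 3.63 CPM against 19.6, 25.4 and 29.7 CPM. Ice1, a subunit of the little elongation complex, was at 6.44, 2.29 and 5.87 CPM against 30.1, 23.9 and 28.8 CPM, with exons shared with Golgin245. CG14274 was at 50.2, 47.6 and 63.1 CPM against 181, 260 and 134 CPM. The fall of CCAP-R, Sox21a, Vsx1 and CG4328 did not pass when some single libraries were left out, with an adjusted p of up to 0.0674, 0.107, 0.0709 and 0.111.

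Ribosomal protein genes were higher as a group. Of 84 tested, 66 were higher and none was lower, all 84 had a positive log2 fold change, and the median was 0.90. The count was 37 without repoGFP- replicate 2 and 40 without replicate 3. RpL22 was at 215, 139 and 205 CPM against 39.9, 37.7 and 38.8 CPM, whereas RpLP0 was at 174, 173 and 182 CPM against 177, 164 and 185 CPM and did not pass. Such short genes have processed copies and close relatives, and the division of reads among them was not tested. Proteasome subunits were higher in 2 of 34 cases (5.9%, beside 15.9% of all genes) and lower in none, with a median of 0.24. The 2 became 0 without repoGFP- replicate 1 or 3.

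Of 14 heat shock and immediate early genes 3 were higher (21.4%, beside 15.9% of all genes), 1 was lower (7.1%, beside 7.07%) and 10 did not pass. Hsp70Bb was at 277, 181 and 189 CPM in repoGFP+ cells against 13.4, 11.3 and 12.2 CPM, and Hsp70Ba was at 77.5, 64.4 and 57.7 CPM against 1.70, 2.24 and 1.08 CPM. The Hsp70 copies are nearly identical, so their values are uncertain one by one. Hsp83 was at 1369, 1400 and 1355 CPM against 3284, 1883 and 1853 CPM (adjusted p = 0.0478), with repoGFP- replicate 1 standing apart, and its call was lost without any 1 repoGFP+ replicate (0.0975 to 0.116). The immediate early gene sr was at 279, 325 and 270 CPM against 391, 311 and 476 CPM and did not pass.

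Other cell types contributed little or unevenly by their defining markers. The photoreceptor markers summed to 481.9 to 598.7 CPM in repoGFP+ libraries and to 4659, 405.6 and 571.6 CPM in the repoGFP- libraries. That of repoGFP- replicate 1 came with 737 CPM of the opsin ninaE and 1316 CPM of the opsin Rh5, against 1.32 and 1.53 CPM of ninaE in the other repoGFP- libraries. In repoGFP+ libraries the sum came mostly from norpA (10447 counts, beside 2799 of Arr2 and 1268 of ninaE). Of 10 photoreceptor genes tested none passed. Without repoGFP- replicate 1, 2 were higher. Without repoGFP- replicate 2, ninaC was lower (log2 fold change -4.79, adjusted p = 0.0230, edgeR). Of the hemocyte markers NimC1 and He had no count and Hml was at most at 1.02 CPM in every library. The collagen genes Col4a1 and vkg of that list were higher, at means of 228 and 223 CPM against 0.197 and 1.03 CPM, and Pxn was lower, at 114 against 270 CPM. The 11 muscle markers summed to 15 to 23.1 CPM over the 6 libraries.

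The targeted gene was low in all sorted libraries. Mettl3 (FBgn0039139, chromosome 3R, 24032157 to 24034257) was at 0.429, 0.170 and 2.45 CPM in repoGFP+ cells and at 5.43, 5.94 and 3.05 CPM in repoGFP- cells of the RNAi brains. The groups did not overlap, as was so for 19.4% of all genes in that direction. The fitted difference was -2.19 ± 1.02 (log2, SE) and did not pass over all genes (adjusted p = 0.187). It passed without repoGFP+ replicate 3, the highest of its group (-3.94, adjusted p = 0.0323). In control brains at 5d Mettl3 was at 10.1, 10.8 and 3.69 CPM in repoGFP+ and 5.52, 6.66 and 7.90 CPM in repoGFP- cells. The difference between genotypes in repoGFP+ cells did not pass either (log2 fold change -3.02, adjusted p = 0.999, edgeR). Replicate 3 of the RNAi and replicate 3 of the control were the closest pair, at 2.45 and 3.69 CPM.

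Of 9 m6A writers and readers, Mettl3 included, 2 were lower (22.2%, beside 7.07% of all genes) and 7 did not pass. nito, a subunit of the writer complex, was at 84.7, 104 and 96.4 CPM against 145, 164 and 141 CPM (adjusted p = 0.0149, and 0.0763 without repoGFP- replicate 2), with exons shared with CG14763 and CG8726. Ythdc1, the nuclear reader, had means of 252 and 373 CPM, and its call (adjusted p = 0.0437) was lost without any 1 library other than repoGFP+ replicate 1. fl(2)d, another writer subunit, was at 238, 252 and 254 CPM against 251, 253 and 232 CPM.

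m6A transcripts were then followed into the sort. They were defined in the m6A-IP of whole 5d heads. In those flies the RNAi against Mettl3, or against mCherry in the control, was driven by da-Gal4 and not by repo-Gal4. There 1490 of 10666 genes (14%) had a lower ratio of m6A-IP to input with Mettl3 RNAi than in control. A higher ratio was found for 537 (5.03%). Of the 1490, 1295 were tested in the sorted cells, where 265 (20.5%) were higher, 178 (13.7%) were lower and the median log2 fold change was -0.04. Of the 7253 other genes tested in both, 1132 (15.6%) were higher and 444 (6.1%) were lower, with a median of 0.02. These shares were not tested against each other. Without the pairing of m6A-IP and input there were 835 m6A transcripts, of which 759 were tested in the sort, with 158 (20.8%) higher, 103 (13.6%) lower and a median of -0.05. m6A itself was measured in heads, not in sorted cells.

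The sort contrast of Mettl3 RNAi brains was set beside the same sort in other brains. Control brains at 5d gave 1224 higher (13.3%) and 438 lower genes (4.77%) of 9181, and Mettl3 RNAi brains at 34d gave 879 (9.59%) and 256 (2.79%) of 9170. The 1436 genes higher here had a median log2 fold change of 3.30, those of them tested in control brains (1389) a median of 2.74, and those tested at 34d (1360) a median of 2.21. The 637 lower genes had medians of -0.69, -0.57 and -0.47. Of the 1389, 1375 were also above 0 in control brains and 1066 passed there. Since the members were selected in the first contrast, its median is the one favored by the selection. The sum of the 6 general glial markers in repoGFP+ cells was 20650.0 to 24160.0 CPM here, 16520.0 to 23410.0 CPM in control at 5d and 7132 to 13940.0 CPM in the RNAi at 34d.

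Whether the sort contrast depended on genotype was tested as an interaction. At 5d 0 of 9789 genes (0.0%) passed in either direction by edgeR, 539 had an unadjusted p under 0.05, and DESeq2 called 30 higher and 12 lower. Within the repoGFP+ cells alone, 0 of 9101 genes passed between Mettl3 RNAi and control (375 at an unadjusted p under 0.05), and within repoGFP- cells 0 of 8770 (344). kn, a transcription factor of the EBF family, was singled out after its values were seen. It was at 30.9, 36.1 and 34.3 CPM in repoGFP+ cells of the RNAi and at 0.350, 0.820 and 1.48 CPM in those of the control. In repoGFP- cells kn was at 32, 27.1 and 12.8 CPM in the RNAi and at 13.1, 33 and 44.6 CPM in control. The interaction for kn was 5.59 (log2) with an adjusted p of 0.116, which ranged from 4.35e-09 (DESeq2) to 0.197 over its alternatives. At 34d the control repoGFP+ cells had 13.9, 29.7 and 50.4 CPM of kn, so the low kn level of the 5d control was not present at 34d. Dic61B, a dynein chain also singled out after its values were seen, had no count in control repoGFP+ cells at 5d. It was at 4.72, 7.38 and 17.7 CPM in those of the RNAi. In repoGFP- cells Dic61B was at 8.02, 2.64 and 6.28 CPM in the RNAi and 7.17, 6.87 and 4.56 CPM in control. At 34d it was at 1.53, 0.406 and 17.1 CPM in control repoGFP+ cells and 0, 3.53 and 0.0699 CPM in those of the RNAi, so the 5d difference was not present at 34d.

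The interaction with age passed for 1 of 9835 genes (0.0102%). CG11275 was at 97.2, 98.7 and 96.7 CPM in repoGFP+ and 0, 0 and 0 CPM in repoGFP- cells at 5d, and at 45.1, 113 and 62.0 CPM against 4.61, 3.56 and 4.73 CPM at 34d (log2 difference 9.20, adjusted p = 0.0129). The fitted value rests on the repoGFP- libraries at 0 and is no bound. The call was lost without 5d repoGFP+ replicate 2 (adjusted p = 0.0513) or 3 (0.0519) or 34d repoGFP- replicate 3 (0.0565), and in control repoGFP- cells at 5d CG11275 was at 0.571, 6.24 and 3.34 CPM. An unadjusted p under 0.05 was found for 703 genes, and DESeq2 called 63 and 20.

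**Figure D4:**
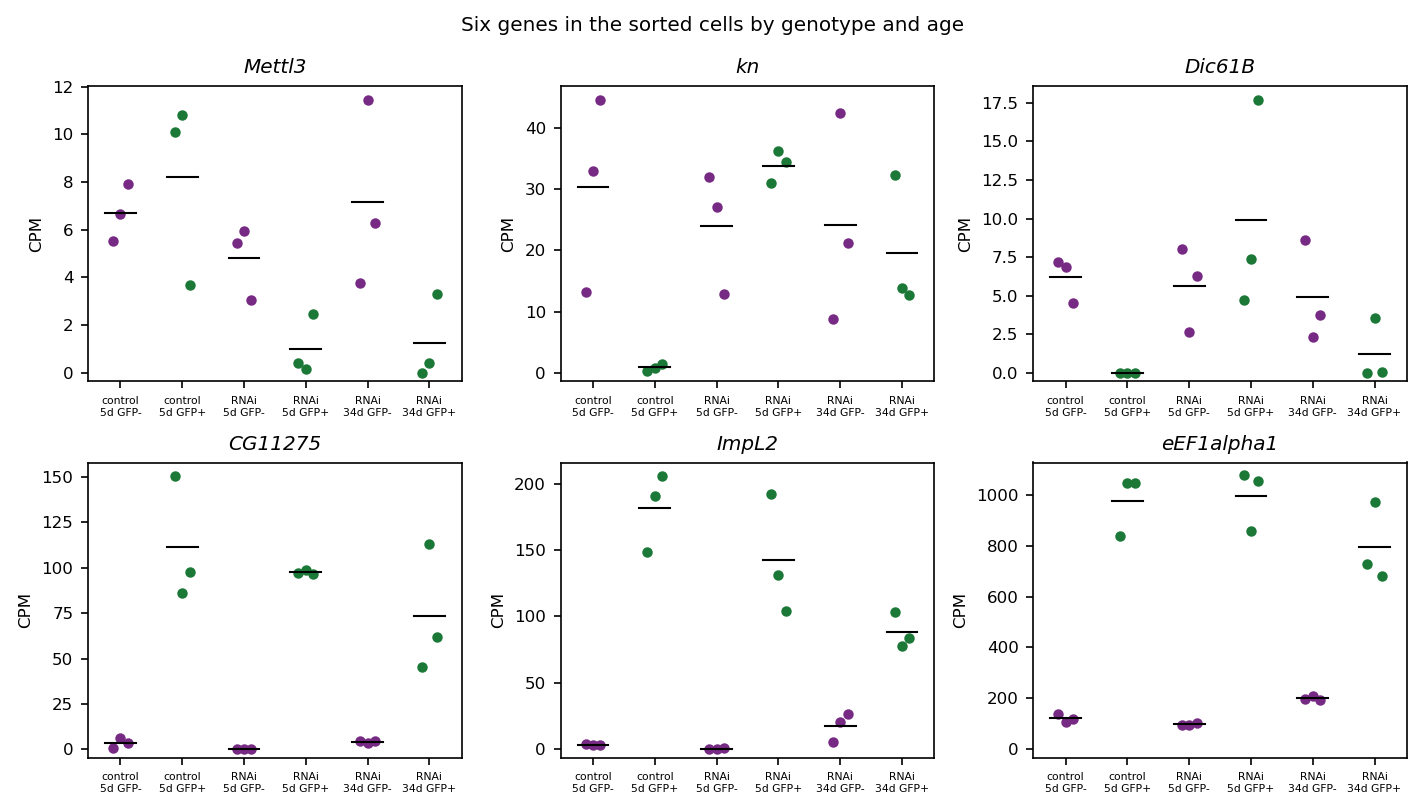
Levels in CPM of 6 genes in each sorted library (points) with the mean of each group (bars), for repoGFP- (purple) and repoGFP+ cells (green) of control and Mettl3 RNAi brains at 5d and of Mettl3 RNAi brains at 34d. Mettl3 was lowest in repoGFP+ cells of the RNAi (0.170 to 2.45 CPM at 5d), kn was near 0 in control repoGFP+ cells (0.350 to 1.48 CPM), and CG11275 was at 0 in all 3 repoGFP- libraries of the RNAi at 5d.

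A second readout of glia against neurons, chosen after the data were seen, came from translating ribosome affinity purification (TRAP) of Mettl3 RNAi brains at 5d. There a tagged ribosomal protein (RpL3-FLAG) was driven in glia by repo-Gal4 or in neurons by elav-Gal4, and the RNAi was driven in the same cells, so the cell type and the site of the knockdown cannot be told apart. The repo IP had 3 libraries of 7429730 to 8316232 reads and the elav IP 4 libraries of 5365030 to 8841677 reads. These IPs were compared with each other and not divided by their inputs. Both IPs also held transcripts of other marker lists. The opsin ninaE had a mean of 4850 CPM in the repo IP and 9287 CPM in the elav IP. Lsp2 of the fat body list had means of 311 and 298 CPM, beside 4 and 2 counts over the repoGFP+ and repoGFP- libraries of the sort. Of 9907 genes 2323 (23.4%) were higher and 2197 (22.2%) were lower in the repo IP. Of the 1405 genes higher in repoGFP+ cells and tested in TRAP, 1112 (79.2%) were higher in the repo IP and 22 (1.57%) were lower. Of the 618 genes lower in repoGFP+ cells, 452 (73.1%) were lower and 8 (1.29%) were higher. Conversely, of 2106 genes higher in the repo IP and tested in the sort, 1112 (52.8%) were higher in repoGFP+ cells, and of 2056 genes lower in the repo IP 452 (22%) were lower there.

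Single markers differed between the readouts. alrm was at 1118 to 1486 CPM in the repo IP against 42.2 to 86.8 CPM in the elav IP, and repo was at 291 to 365 CPM against 27.2 to 37.3 CPM. wrapper, among the most uneven genes of the sort, was at 11.5 to 19.6 CPM against 10.1 to 14.3 CPM in TRAP and did not pass there (adjusted p = 0.396). mdy was at 15 to 18.1 CPM against 14.8 to 19 CPM (adjusted p = 0.928) and apolpp was at 463 to 573 CPM against 464 to 675 CPM (adjusted p = 0.422). Eaat1, at 1.73-fold in the sort, was at 1135 to 1587 CPM against 175 to 240 CPM. Lac, which did not pass in the sort, was higher in the repo IP (54.9 to 67.6 against 10.0 to 18.2 CPM). The transporter gene out, lower in the sort, was higher in the repo IP, at 11.2 to 12.7 against 2.53 to 6.75 CPM (adjusted p = 0.00343, edgeR). Syn, a synaptic vesicle protein gene that shares exons with Timp, was at 538 to 638 CPM against 198 to 240 CPM, higher in the repo IP, although in the sort it was at a mean of 798 against 895 CPM. dac was lower in both.

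**Figure D5:**
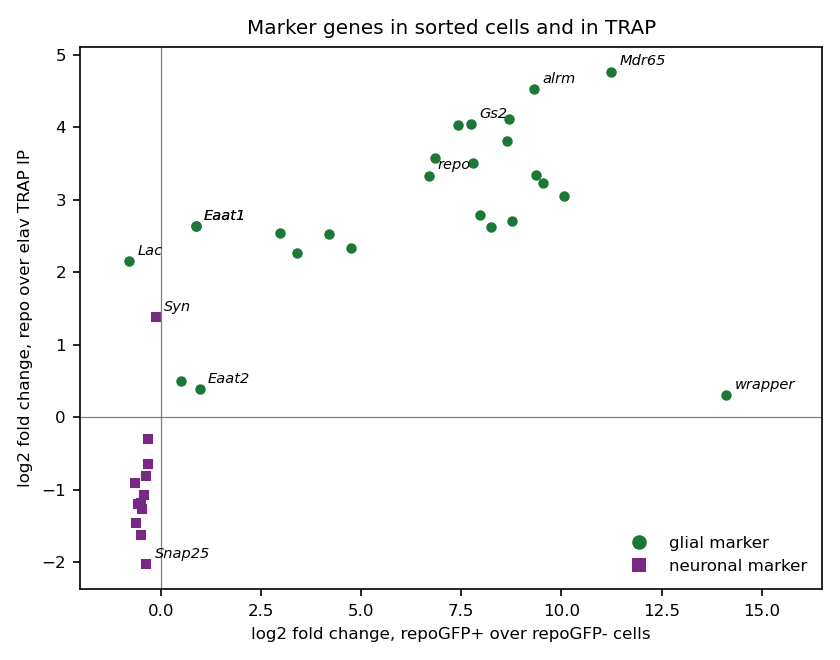
Log2 fold change of repo over elav TRAP IP (vertical axis) against that of repoGFP+ over repoGFP- cells (horizontal axis) for glial (green circles) and neuronal markers (purple squares), Mettl3 RNAi at 5d. Most glial markers were above 0 on both axes, wrapper was at 14.11 in the sort and 0.31 in TRAP, and neuronal markers other than Syn (1.38) were below 0 on both.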

How the data were processed

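RNA of about 500 sorted cells per library was amplified with the SMART-Seq v4 kit and made into libraries with NexteraXT, which does not mark strand. The authors trimmed reads with Trim Galore, aligned them to dm6 with STAR 2.7.3a, removed improperly paired reads, assigned the others to FlyBase exons by summarizeOverlaps in its union mode, in which a read over more than 1 gene is dropped, and deposited raw counts per gene as 1 table of 17562 genes and 140 libraries. The strand setting of the counting is not given in the sources used here. The study's own test of sorted cells used DESeq2 with a factor for unwanted variation (RUVr), an alternative here.

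Counts were tested with edgeR 4.0.16 (R 4.3.3, quasi-likelihood test, TMM scaling, filterByExpr, Benjamini-Hochberg adjustment over all genes tested, threshold 0.05) on the 6 libraries, and interactions on 12 libraries each. m6A transcripts were tested as the m6A-IP to input ratio with each pair as a block, and TRAP IPs with 1 fit of repo against elav drivers. DESeq2 1.42.0, RLE scaling, no filter, a mean count of at least 50, a replicate block, RUVr with 1 factor, all 24 libraries and each library left out were alternatives. Figures and tables used Python 3.11.15. Depth ranged from 10575300 to 15104286 counts per library, where a floor of 3 counts over a group of 3 libraries bounds the fold of genes at 0, and ratios on 1 to 3 counts carry 95% exact Poisson intervals. Coordinates and shared exons came from Ensembl's fly annotation in dm6 coordinates, with 16847 genes matched by symbol, 7 by synonym and 708 unmatched.

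Genes were named by rule: the 12 largest rises and falls among called genes with at least 10 CPM and no overlap of replicates, Mettl3, repo and elav, all cell type markers, up to 4 called and 2 uncalled members of each list, up to 6 genes per direction of each interaction, and Mmp1, puc, Ets21C and dl. Other names (such as kn, Dic61B, Treh, kcc, Glut1, Sh, SK, kdn, GstD1, Atpalpha and Dop1R1) were chosen after their values were seen. The members, lists and tests were chosen with earlier results of these data known. The scripts were tested on simulated data. Some results are not reported here.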

Additional observations from a re-analysis of the deposited data

Results flagged for a closer look

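CG11275 was flagged because its sort contrast in Mettl3 RNAi brains differed between 5d and 34d, by 9.20 on the log2 scale (adjusted p = 0.0129, edgeR, higher in 3 of 3 repoGFP+ libraries at both ages). Levels at 5d were 97.2, 98.7 and 96.7 CPM against 0, 0 and 0 CPM, and at 34d 45.1, 113 and 62.0 CPM against 4.61, 3.56 and 4.73 CPM. Over its alternatives the adjusted p ranged from 4.65e-08 to 0.485. Groups of 3 libraries were not searched for single outlying samples.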

How the results depend on the processing

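The sort contrast gave 1655 higher and 908 lower genes with DESeq2, 1441 and 627 with RLE scaling, 1384 and 578 with no filter, 1331 and 592 with a mean count of at least 50, 1422 and 826 with RUVr and 1374 and 555 in a fit of all 24 libraries. Leaving out 1 library gave 1170 to 1452 higher and 289 to 701 lower genes. The share of higher genes among all calls was 69.3%, and 63.3% with RUVr and 77.6 to 80.3% without 1 repoGFP- library. None of these fits reversed a call of the main fit. With the replicate number as a block the counts were 1212 and 448, of which 1194 and 406 were shared. Deviations of same-numbered repoGFP+ and repoGFP- libraries correlated at -0.028 to 0.042 over genes, and at up to 0.104 in control brains at 5d. Such correlations cannot decide whether same-numbered libraries came from the same brains. The labels state no pairing, and the main fit used no block.

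The interaction with genotype (0 genes) became 30 and 12 with DESeq2, 1 higher with no filter, and 0 to 4 higher and 0 to 1 lower with 1 library left out. The interaction with age (1 and 0) became 63 and 20 with DESeq2, 2 with no filter, 0 with the block, and 0 to 13 higher and 0 to 0 lower with 1 library left out. The 1490 m6A transcripts became 835 with no replicate block. The causes were not tested. For 225 single-gene results, 2676 of 2934 alternative values kept the side of the threshold, 193 lost the call and 65 gained it. Of the calls of the main fit 0 reversed, but some genes without a call changed sign. Without repoGFP- replicate 1 ninaE was called higher (log2 fold change 4.94, adjusted p = 0.00139, edgeR). Without repoGFP+ replicate 1 AttA was called lower (log2 fold change -7.62, adjusted p = 0.0394, edgeR). Both went against the sign of the main fit. At 10575300 to 15104286 counts a library, genes with few counts are limited by counting error.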

Other observations

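The values of 4 genes chosen after their values were seen are given here, none of which passed the test of a difference between ages or genotypes by the edgeR quasi-likelihood test with all libraries and the filter on low counts (Benjamini-Hochberg adjusted), while DESeq2 called all 4. ImpL2, a secreted protein that binds insulin-like peptides, was at 192, 131 and 104 CPM in repoGFP+ and 0.324, 0 and 0.808 CPM in repoGFP- cells of the 5d Mettl3 RNAi. At 34d it was at 103, 77.6 and 83.8 CPM against 5.44, 20.8 and 26.2 CPM (adjusted p of the difference between ages 0.119 by edgeR and 1.09e-09 by DESeq2, and 0.0311 to 0.347 with single libraries left out). ImpL2 shares exon sequence with CG46460. eEF1alpha1, a translation elongation factor, was at 97.3, 93.8 and 103 CPM in repoGFP- cells at 5d and at 199, 208 and 193 CPM at 34d (adjusted p of the difference between ages 0.0791 by edgeR and 4.57e-07 by DESeq2, under the threshold in 3 of 17 alternatives, and 0.0042 to 0.279 with single libraries left out). Its repoGFP+ libraries held 856 to 1077 CPM at 5d and 679 to 973 CPM at 34d.

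The forkhead factor fd59A was at 50.5, 43.9 and 37.6 CPM in repoGFP+ cells of the 5d Mettl3 RNAi and at 11.5, 15.6 and 11.3 CPM in those of the control. The repoGFP- cells had 54.8, 35 and 28.6 CPM in the RNAi and 72.1, 46.1 and 54.4 CPM in the control (adjusted p of the difference between genotypes 0.116 by edgeR and 6.79e-05 by DESeq2, and 0.119 to 0.312 with single libraries left out). At 34d fd59A was at 43.8, 37.6 and 50.25 CPM in control repoGFP+ cells and 32.4, 33.4 and 13.9 CPM in those of the RNAi. The low level of the 5d control was thus not present at 34d. Cpsf6, a subunit of a cleavage and polyadenylation factor, was at 119, 134 and 107 CPM in repoGFP+ cells of the RNAi and at 45.3, 47.6 and 75.1 CPM in those of the control (adjusted p of the difference between genotypes 0.116 by edgeR and 2.94e-05 by DESeq2, and 0.0206 to 0.307 with single libraries left out). In repoGFP- cells at 5d Cpsf6 was at 92.5, 92.2 and 80.6 CPM in the RNAi and 116, 130 and 138 CPM in the control. At 34d it was at 91.6, 33.5 and 155 CPM in control repoGFP+ cells and 121, 120 and 131.5 CPM in those of the RNAi. The exons of Cpsf6 overlap those of lncRNA:CR45409.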
